A study of Mus musculus with 36 samples.

Results

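The genes described here are nuclear receptors outside the core clock loops, in livers of mice. They were chosen by name, from a list of 34 receptor symbols, and a gene was measured if a probe set of the arrays was annotated with its symbol and no other. Of the 34, 32 were measured, out of 22180 genes in all. Nr1h2 (liver X receptor beta) and Nr2e3 were not annotated in this way and are not analysed here. Each receptor was read by 1 probe set, except Nr3c2, for which the brighter of 2 was used.

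Livers of C57BL/6 mice were collected at 6 Zeitgeber times (ZT, hours after lights on in a cycle of equal light and dark), every 4 h, and RNA was read on 1-colour Affymetrix arrays. Among their alleles, TB mice carried p53fl/fl, a p53 gene that Cre recombinase deletes, and their controls were WT mice of the same strain background. Each genotype had 18 arrays, 3 at each of the 6 times. The labels do not say where or how Cre was supplied, nor the sex or age of the animals, and nothing in them states that replicates were separate animals, so the p-values cover the spread among arrays, which may be technical. The study asked how a lung adenocarcinoma relates to gene expression in the distant liver over the day. TB stands for tumour-bearing. Tumour and alleles go together in these groups, so their parts in a TB minus WT difference, called a genotype difference below, cannot be told apart.

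Nuclear receptors are transcription factors that sense small fat-soluble ligands, such as thyroid hormone, retinoic acid, oxysterols, steroids, fatty acids and foreign chemicals, and bind short response elements as monomers, homodimers or heterodimers with a retinoid X receptor (RXR). In the liver they set the output of genes for lipid, bile acid, sugar and drug metabolism. Several of them are known to have transcripts that rise and fall over the day in mouse liver, beside the REV-ERB and ROR receptors that form part of the clock itself.

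Values below are probe set intensities, a linear brightness with no fixed unit, so levels are compared within a gene and not between genes. Differences and amplitudes are on the log2(intensity + 16) scale, which understates changes of dim genes. The arrays had similar medians (36.3 to 43.3 intensity units). Of the 32 receptors, 30 read above 16 in every array. Vdr was under 16 in 3 arrays and Esrrb in 26, with a median of 13.2 for Esrrb. The hepatocyte markers summed to 45447 to 49602 units in TB livers and 45082 to 49810 in WT livers (6 of 6 measured). A single array, WT ZT 12 replicate 3, carried skeletal muscle RNA: the 10 muscle markers summed to 270747 units there, against 1084 in WT ZT 16 replicate 2 and 479 to 823 in the other 34 arrays of TB and WT. A reading above 16 does not by itself show expression, since outside that array the muscle gene Ttn read 24.1 to 57.0 units. The medians of Nr2f1, Nr4a1, Nr4a2, Nr4a3, Rxrg, Rarb, Rarg, Hnf4g and Rorb, from 33.4 to 49.1 units, lay in that range. Whether these receptors were expressed in the livers was not established. In addition, 12 arrays, 1 in each group, stood apart from the other 24 along the main direction of spread within groups (28.6% of the variance over probe sets without a symbol). In whole liver, fewer cells of a type and less RNA per cell cannot be told apart.

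Ppard cycled most strongly of the 32 receptors in both genotypes. It encodes PPAR delta, a fatty acid receptor that acts as a heterodimer with RXR. Its transcript was high at ZT 20 and ZT 0, around lights on, and lowest at ZT 8. In TB livers the intensities were 104, 180.5 and 321 at ZT 0, 72.1, 61.1 and 52.6 at ZT 4, 51.6, 64.1 and 49.96 at ZT 8, 71.3, 47.9 and 64.3 at ZT 12, 86.9, 67.7 and 53.1 at ZT 16, and 215, 183 and 202 at ZT 20. In WT livers they were 209, 184 and 193 at ZT 0, 107, 95.7 and 85.0 at ZT 4, 50.4, 67.7 and 33.3 at ZT 8, 60.9, 65.2 and 98.4 at ZT 12, 63.0, 68.0 and 86.8 at ZT 16, and 172, 193 and 165 at ZT 20. At ZT 0 and ZT 20 every array of either genotype was above every array of the same genotype at the other 4 times: 104 to 321 units against 47.9 to 86.9 in TB livers, and 165 to 209 against 33.3 to 107 in WT livers. The highest group mean exceeded the lowest 3.04-fold in TB livers and 3.25-fold in WT livers on the log2(intensity + 16) scale.

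A 24 h cosine fitted to Ppard had an amplitude (its height above the mean, in log2) of 0.87 ± 0.12 in TB livers and 0.81 ± 0.12 in WT livers (SE, n = 18 arrays each). The fitted peaks were at ZT 21.7 in TB livers and ZT 22.3 in WT livers. The F test of the cosine and sine terms in limma, adjusted over all 22180 genes, gave adjusted p = 4.11e-05 in TB livers and 9.08e-05 in WT livers. In the 24 arrays of the larger set alone the amplitude was 0.82 in TB livers and 0.90 in WT livers (limma adjusted p = 0.00128 and 0.000378 for TB and WT). In the 12 that stood apart, 6 per genotype, it was 0.98 in TB livers and 0.65 in WT livers. Neither was called there (limma adjusted p = 0.266 and 0.435 for TB and WT).

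Nr2f6 peaked at the same time of day as Ppard, with a much smaller swing. It encodes EAR2, an orphan receptor of the COUP-TF family that mostly represses transcription. In TB livers it read 164, 204 and 184 at ZT 0, 179.6, 163 and 150.3 at ZT 4, 149.5, 155 and 114 at ZT 8, 142, 131 and 159.9 at ZT 12, 165, 169 and 167 at ZT 16, and 181, 185 and 186 at ZT 20. In WT livers it read 185, 196 and 193 at ZT 0, 158, 158 and 159 at ZT 4, 153, 154 and 146 at ZT 8, 141, 152 and 149 at ZT 12, 172, 159 and 168 at ZT 16, and 175, 177 and 164 at ZT 20. Arrays of ZT 0 and ZT 20 were the high ones, although the lowest TB array of ZT 0 overlapped ZT 4 and ZT 16, and the lowest WT array of ZT 20 overlapped ZT 16. The amplitude was 0.20 ± 0.036 in TB livers, with a peak at ZT 21.7 (limma adjusted p = 0.00153), and 0.15 ± 0.036 in WT livers, with a peak at ZT 22.2 (adjusted p = 0.0224). Without WT ZT 0 replicate 2 or 3 the WT call was lost (adjusted p = 0.0638 and 0.0550). In the larger set of 24 arrays alone the WT amplitude was 0.15 and not called (adjusted p = 0.105), while the TB call held (adjusted p = 0.00574). The spread within groups was the smallest of the 32 receptors, 0.095 log2 (SD), against a median of 0.19 over the receptors and 0.18 over all genes.

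The promoters of Ppard and Nr2f6 are shown because both transcripts peaked near ZT 22. The sequences are the 250 bases before the annotated start in RefSeq for mouse build GRCm38.p6, 5′ to 3′ on the strand of the gene, with every CG dinucleotide in capitals.
Ppard, chr17:28232504-28232753, plus strand: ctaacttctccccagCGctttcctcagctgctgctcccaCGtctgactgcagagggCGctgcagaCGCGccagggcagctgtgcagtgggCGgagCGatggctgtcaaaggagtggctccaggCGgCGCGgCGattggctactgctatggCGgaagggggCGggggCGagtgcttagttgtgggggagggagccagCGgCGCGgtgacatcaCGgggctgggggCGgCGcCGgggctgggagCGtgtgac
Nr2f6, chr8:71381953-71382202, minus strand: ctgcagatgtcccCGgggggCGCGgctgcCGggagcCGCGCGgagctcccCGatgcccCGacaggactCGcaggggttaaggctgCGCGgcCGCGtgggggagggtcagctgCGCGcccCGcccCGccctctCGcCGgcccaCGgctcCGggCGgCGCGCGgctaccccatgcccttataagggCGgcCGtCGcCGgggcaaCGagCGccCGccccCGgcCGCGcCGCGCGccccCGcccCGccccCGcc
The last 15 bases of the Nr2f6 window lie inside the annotated span of the gene. The Ppard window held 22 CG dinucleotides and 69.6% G or C, and the Nr2f6 window held 42 and 82.4%, against a median of 6 CG dinucleotides in the windows of the table. Windows of 300 bases, 250 before to 50 after a start, were then searched on both strands for letters bound by clock factors. The E-box CACGTG, the site of CLOCK and BMAL1, was in 7.15% of all 32851 windows and in windows of Nr1i3, Rara and Thrb. The D-box TTATGNAA, the site of PAR bZIP factors, was in 3.38% of all windows and in a window of Esrrg. The ROR element TAGGTCA was in 2.61% of all windows and in 0 of the 51 windows of the 30 receptors that had any. Of the 9 receptors called rhythmic in TB or WT livers, 8 had windows, 11 in all, and 0 of the 11 held any of these letters. The lack of a match says only that these letters are not in that window.

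**Figure D1:**
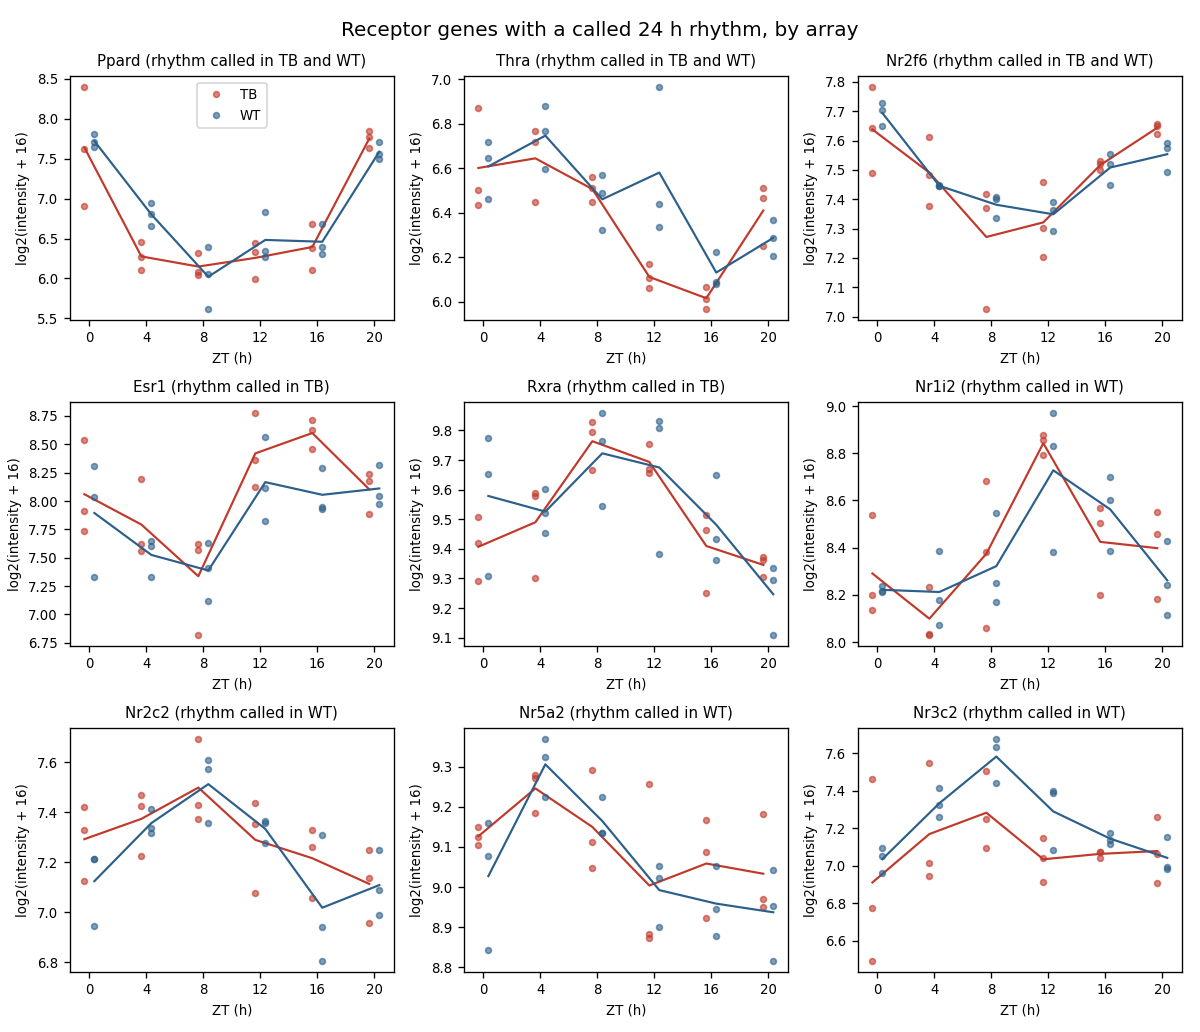
Intensity on the log2(intensity + 16) scale (vertical axes) against ZT in hours (horizontal axes) for the 9 receptor genes with a called 24 h rhythm in TB or WT livers. Each point is 1 array, red for TB and blue for WT, and lines join the means of 3 arrays. Ppard at ZT 0 and ZT 20 sits apart from the other 4 times in both genotypes, and Thra has its lowest group mean at ZT 16 in both.

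Of the 32 receptors, 5 were rhythmic in TB livers (background, all genes called: 4.95%), 7 in WT livers (background 6.45%) and 3 in both (background 2.68%). Those called in both were Ppard, Thra and Nr2f6. Esr1 and Rxra were called in TB livers and not in WT, and Nr2c2, Nr5a2, Nr3c2 and Nr1i2 in WT livers and not in TB. The test of a different rhythm called 0 receptors and 0% of all genes, and at an unadjusted p under 0.05 it held 1 receptor (Rarb) and 4.8% of all genes. A rhythm called in 1 genotype therefore was not shown to differ from the other genotype. The median amplitude over the 32 receptors was 0.099 in TB livers and 0.15 in WT livers, beside 0.089 in TB livers and 0.086 in WT livers over all genes. The fitted amplitude was larger in TB livers for 12 of the 32 receptors, and for 50.4% of all genes.

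**Figure D2:**
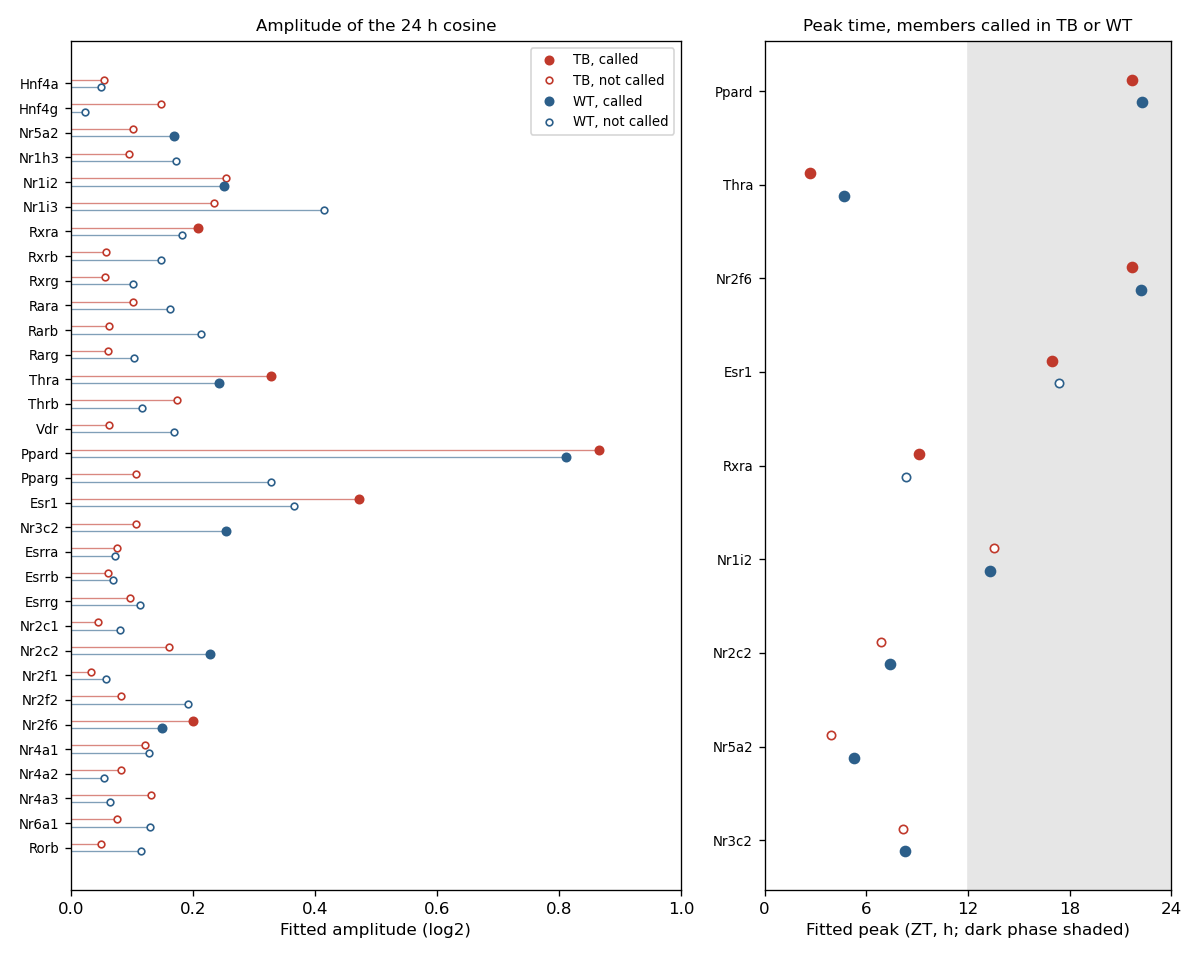
Left, amplitude of the fitted 24 h cosine in log2 for each of the 32 receptors, red for TB and blue for WT, with filled circles where the rhythm was called (limma adjusted p under 0.05). Right, fitted peak in hours of ZT for the 9 receptors called in TB or WT livers, with the dark phase shaded. Ppard has the largest amplitude in both genotypes, 0.87 in TB and 0.81 in WT, and the peaks of a gene in TB and WT lie close together, with the widest gap for Thra (ZT 2.6 in TB and ZT 4.7 in WT). Without the muscle-bearing WT array, not drawn here, the WT peak of Thra was at ZT 3.7. The widest gap was then that of Nr5a2 (ZT 3.9 in TB and ZT 5.7 in WT).

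Among the receptors tied to hepatocyte identity, Hnf4a and Hnf4g were not called rhythmic, and Nr5a2 was called in WT livers. Hnf4a, the HNF4 alpha that maintains the hepatocyte program, had amplitudes of 0.054 in TB and 0.049 in WT livers. Its lowest, median and highest intensities were 911, 1292 and 1649 in TB livers and 880.2, 1225 and 1488 in WT livers, where the lowest was the muscle-bearing array. Nr5a2 encodes LRH-1, a phospholipid-binding receptor that acts on bile acid synthesis genes. TB arrays of Nr5a2 read 543, 552 and 535 at ZT 0, 605, 566 and 603 at ZT 4, 513, 610.3 and 537 at ZT 8, 453, 456 and 595 at ZT 12, 559, 528 and 469 at ZT 16, and 564, 478 and 485 at ZT 20. WT arrays of Nr5a2 read 443, 524 and 556 at ZT 0, 645, 625 and 582 at ZT 4, 582, 546 and 546 at ZT 8, 504, 515 and 462 at ZT 12, 515, 454 and 477 at ZT 16, and 479, 511 and 435 at ZT 20. ZT 4 was the highest time in both genotypes, and the lowest were ZT 12 in TB livers and ZT 20 in WT livers. The high and low times did not overlap in WT livers and overlapped in TB livers. The amplitude was 0.10 ± 0.042 in TB livers (limma adjusted p = 0.339) and 0.17 ± 0.042 in WT livers (adjusted p = 0.0260), where it peaked at ZT 5.3. The WT call was lost without WT ZT 4 replicate 1 (0.0832) or 2 (0.0758), ZT 8 replicate 1 (0.0501), ZT 16 replicate 2 (0.0525) or ZT 20 replicate 3 (0.0612, adjusted p each).

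The xenobiotic receptors had their highest group means toward or at lights off. Nr1i2 encodes PXR and Nr1i3 encodes CAR, sensors of drugs, bile acids and other foreign or endogenous chemicals that act with RXR. Nr1i2 read 355, 278 and 266 at ZT 0, 246, 285 and 246 at ZT 4, 394, 251 and 317 at ZT 8, 448, 454 and 428 at ZT 12, 278, 347 and 364 at ZT 16, and 359, 275 and 336 at ZT 20 in TB livers. In WT livers it read 280.2, 282 and 285 at ZT 0, 253, 319 and 273 at ZT 4, 289, 272 and 358 at ZT 8, 439.7, 486 and 317 at ZT 12, 372, 399 and 319 at ZT 16, and 286, 262 and 328 at ZT 20. ZT 12 was the highest time and ZT 4 the lowest in both genotypes. The high and low times did not overlap in TB livers and overlapped in WT livers by 1 array of ZT 12, the muscle-bearing array. Its amplitude was 0.25 ± 0.068 in TB livers and 0.25 ± 0.068 in WT livers, with peaks at ZT 13.6 and ZT 13.3 for TB and WT. The adjusted p-values in limma were 0.0521 for TB and 0.0483 for WT, on either side of 0.05. The WT call was lost without any 1 of 24 of the 36 arrays, with adjusted p up to 0.172 without WT ZT 12 replicate 2. Without the muscle-bearing array it held, with a WT amplitude of 0.28 (limma adjusted p = 0.0301). The TB rhythm was called without any 1 of 6 of the arrays, with adjusted p down to 0.0126 without TB ZT 0 replicate 1.

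Nr1i3 was not called in either genotype. TB arrays of Nr1i3 read 588, 577 and 541 at ZT 0, 443, 473 and 373 at ZT 4, 959, 719.8 and 659 at ZT 8, 545, 881 and 835 at ZT 12, 447, 815 and 422 at ZT 16, and 528, 643 and 629 at ZT 20. WT arrays of Nr1i3 read 409, 498 and 522 at ZT 0, 351, 396 and 465 at ZT 4, 661, 355 and 818 at ZT 8, 651, 1043 and 648 at ZT 12, 586, 883 and 615 at ZT 16, and 585, 529.6 and 334 at ZT 20. ZT 4 was the lowest time in both genotypes. The amplitude was 0.23 ± 0.11 in TB livers (limma adjusted p = 0.477) and 0.41 ± 0.11 in WT livers (adjusted p = 0.0510). The WT rhythm was called without any 1 of 7 arrays: WT ZT 0 replicate 3, ZT 8 replicate 2 and ZT 20 replicate 3, and TB ZT 4 replicate 3, ZT 8 replicate 1 and ZT 16 replicates 1 and 3 (adjusted p 0.0211 to 0.0498). It was also called in the larger set of 24 arrays alone (amplitude 0.53, adjusted p = 0.0394). Replicates of Nr1i3 spread widely, with an SD within groups of 0.34 log2. Nr1h3, which encodes the oxysterol sensor LXR alpha, had amplitudes of 0.094 in TB and 0.17 in WT livers and was not called. Its lowest value of the 36 arrays was in the muscle-bearing array (259 units, against 321 or more elsewhere), and without it the WT amplitude was 0.11.

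Of the RXR partners, Rxra was called in TB livers, and Rxrb and Rxrg in neither genotype. Rxra encodes RXR alpha, a partner of PPARs, LXRs, PXR, CAR, thyroid hormone, retinoic acid and vitamin D receptors. TB arrays of Rxra read 669.5, 611 and 712 at ZT 0, 749, 615 and 754 at ZT 4, 873, 797 and 893 at ZT 8, 799, 847 and 792 at ZT 12, 690.0, 594 and 715 at ZT 16, and 646, 642 and 617 at ZT 20. WT arrays of Rxra read 789, 859.7 and 618 at ZT 0, 719, 685 and 761 at ZT 4, 912, 731 and 854 at ZT 8, 896, 880.4 and 652 at ZT 12, 642, 787 and 675 at ZT 16, and 630.3, 537 and 611 at ZT 20. ZT 8 was the highest time and ZT 20 the lowest in both genotypes, and the arrays of those times did not overlap in either genotype. The amplitude was 0.21 ± 0.052 in TB livers with a peak at ZT 9.1 (limma adjusted p = 0.0305), and 0.18 ± 0.052 in WT livers with a peak at ZT 8.3 (adjusted p = 0.0656).

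The Rxra calls turned on single arrays. The TB call was lost without TB ZT 0 replicate 2 (0.0516), ZT 8 replicate 1 (0.0817) or 3 (0.0891), ZT 12 replicate 1 (0.0572) or 2 (0.0656) or ZT 20 replicate 3 (0.0631, adjusted p each). In WT livers Rxra was called without WT ZT 0 replicate 1 (0.0393) or 2 (0.0175), ZT 8 replicate 2 (0.0402), ZT 16 replicate 2 (0.0471) or the muscle-bearing array (0.0296). Rxrb (RXR beta) had amplitudes of 0.058 in TB and 0.15 in WT livers. Rxrg (RXR gamma), a form of muscle and brain, had amplitudes of 0.057 and 0.10 in TB and WT livers.

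Thra, which encodes thyroid hormone receptor alpha, was rhythmic in both genotypes with its peak in the early light phase. In TB livers its intensities were 74.6, 70.4 and 100.9 at ZT 0, 92.8, 71.4 and 89.3 at ZT 4, 71.2, 78.4 and 75.4 at ZT 8, 52.8, 50.7 and 56.0 at ZT 12, 48.5, 51.0 and 46.7 at ZT 16, and 75.3, 72.4 and 60.2 at ZT 20. In WT livers they were 89.2, 84.1 and 72.2 at ZT 0, 102, 93.0 and 80.7 at ZT 4, 64.0, 79.1 and 73.9 at ZT 8, 64.9, 70.8 and 109 at ZT 12, 51.7, 52.1 and 58.8 at ZT 16, and 66.5, 62.2 and 57.9 at ZT 20. ZT 16 held the lowest group mean in both genotypes. The highest WT value, 109 units, came from the muscle-bearing array, and it was the highest of all 36 arrays. The amplitude was 0.33 ± 0.057 in TB livers with a peak at ZT 2.6 (limma adjusted p = 0.000891), and 0.24 ± 0.057 in WT livers with a peak at ZT 4.7 (adjusted p = 0.0172). Without the muscle-bearing array the WT amplitude was 0.28, with a peak at ZT 3.7 (adjusted p = 0.000375). The WT call was lost without WT ZT 4 replicate 1 (0.0594) or WT ZT 16 replicate 1 (0.0578) or 2 (0.0541, adjusted p each).

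Thrb, which encodes thyroid hormone receptor beta, the main form in hepatocytes, was not called rhythmic. Its amplitude was 0.17 ± 0.048 in TB livers (limma adjusted p = 0.0675) and 0.12 ± 0.048 in WT livers (adjusted p = 0.347), with fitted peaks at ZT 20.6 and ZT 17.4 for TB and WT. The TB rhythm was called without TB ZT 0 replicate 1 (0.0110) or TB ZT 8 replicate 2 (0.0162, adjusted p each). The retinoic acid receptors Rara, Rarb and Rarg, which turn retinoic acid into transcriptional output with RXR, were not called in either genotype, with amplitudes of 0.060 to 0.10 in TB livers and 0.10 to 0.21 in WT livers. Rarb had the smallest unadjusted p for a different rhythm (0.0265, adjusted 0.985). TB arrays of Rarb read 40.2, 39.1 and 53.0 at ZT 0, 53.9, 30.4 and 41.5 at ZT 4, 30.0, 53.1 and 28.9 at ZT 8, 48.7, 38.9 and 39.4 at ZT 12, 39.4, 47.3 and 30.3 at ZT 16, and 55.9, 36.6 and 38.4 at ZT 20. WT arrays of Rarb read 31.8, 32.8 and 37.2 at ZT 0, 39.4, 35.6 and 30.6 at ZT 4, 39.2, 42.6 and 43.3 at ZT 8, 48.2, 61.0 and 43.0 at ZT 12, 50.6, 38.7 and 56.6 at ZT 16, and 50.3, 37.0 and 44.1 at ZT 20. Arrays of the genotypes overlapped at ZT 12 and were apart at ZT 0. The WT rhythm of Rarb was called without WT ZT 16 replicate 2 (limma adjusted p = 0.0411). Thra (unadjusted p = 0.125) and Thrb (0.187) were next for a different rhythm, each with limma adjusted p = 0.985. Without the muscle-bearing array the limma unadjusted p of Thra was 0.378. Vdr, the vitamin D receptor, known from the non-parenchymal cells of liver, was near the low end of the scale. TB arrays of Vdr read 26.1, 27.2 and 26.3 at ZT 0, 23.2, 26.5 and 17.7 at ZT 4, 30.4, 32.6 and 25.8 at ZT 8, 24.9, 28.9 and 23.3 at ZT 12, 27.4, 25.3 and 25.3 at ZT 16, and 22.1, 31.6 and 15.1 at ZT 20. WT arrays of Vdr read 20.0, 14.96 and 17.1 at ZT 0, 15.6, 19.9 and 19.9 at ZT 4, 18.9, 31.6 and 17.4 at ZT 8, 25.1, 25.7 and 35.7 at ZT 12, 28.0, 18.5 and 21.3 at ZT 16, and 31.3, 21.3 and 30.1 at ZT 20. Arrays of the genotypes were apart at ZT 0 and overlapped at the other 5 times.

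Pparg, the PPAR gamma of fat storage, had the widest spread among replicates of the 32 receptors, with an SD within groups of 0.50 log2. At ZT 12 its arrays read 67.2, 269 and 226 in TB livers and 111, 326 and 119 in WT livers. Its amplitudes of 0.11 in TB livers and 0.33 in WT livers were not called (limma adjusted p = 0.944 and 0.475 for TB and WT).

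Esr1, which encodes estrogen receptor alpha, had the largest amplitude of the receptors in TB livers after Ppard. In TB livers its intensities were 355, 197 and 225 at ZT 0, 172, 181 and 277 at ZT 4, 174, 97.1 and 181 at ZT 8, 422, 262 and 313 at ZT 12, 403, 336 and 379.7 at ZT 16, and 286, 221 and 274 at ZT 20. In WT livers they were 247, 302 and 145 at ZT 0, 184, 145 and 178 at ZT 4, 154, 182 and 123 at ZT 8, 362, 261 and 210.2 at ZT 12, 227, 231 and 297 at ZT 16, and 247, 235 and 304 at ZT 20. ZT 8 was the lowest time in both genotypes, and the arrays of ZT 16 were all above those of ZT 8 in both. The amplitude was 0.47 ± 0.11 in TB livers with a peak at ZT 17.0 (limma adjusted p = 0.0243), and 0.37 ± 0.11 in WT livers with a peak at ZT 17.4 (adjusted p = 0.108). The TB call was lost without TB ZT 16 replicate 1 (adjusted p = 0.0601) or 3 (0.0578), and in the larger set of 24 arrays alone (amplitude 0.38, adjusted p = 0.188). Sex, on which Esr1 levels in liver can depend, is not given in the labels, and its part in the values was not tested.

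Nr3c2, which encodes the mineralocorticoid receptor for aldosterone and corticosterone, was called in WT livers. TB arrays of Nr3c2 read 74.2, 93.5 and 161 at ZT 0, 171, 107 and 113 at ZT 4, 121, 166 and 136 at ZT 8, 105, 116 and 126 at ZT 12, 119, 119 and 116 at ZT 16, and 104, 137 and 118 at ZT 20. WT arrays of Nr3c2 read 109, 121 and 117 at ZT 0, 138, 154 and 144 at ZT 4, 189, 182 and 158 at ZT 8, 119.6, 153 and 151 at ZT 12, 125, 129 and 123 at ZT 16, and 111, 126 and 111 at ZT 20. ZT 8 was the highest time and ZT 0 the lowest in both genotypes. The high and low times were apart in WT livers and overlapped in TB livers, where the 3 arrays of ZT 0 differed most. The amplitude was 0.11 ± 0.066 in TB livers (limma adjusted p = 0.667) and 0.25 ± 0.066 in WT livers (adjusted p = 0.0375), with peaks at ZT 8.2 and ZT 8.3 for TB and WT. The WT call was lost without any 1 of 11 arrays, all WT: those of ZT 0 and ZT 8, ZT 4 replicate 2, ZT 12 replicate 2, ZT 16 replicate 3 and ZT 20 replicates 1 and 3 (adjusted p 0.0509 to 0.122).

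The orphan receptors other than Nr2f6 included 1 called gene. Nr2c2 encodes TR4, an orphan receptor that competes with ligand-bound receptors for response elements. In TB livers it read 156, 124 and 145 at ZT 0, 161, 156 and 134 at ZT 4, 156, 191 and 149.9 at ZT 8, 148, 119 and 157 at ZT 12, 138, 145 and 117 at ZT 16, and 136, 125 and 108 at ZT 20. In WT livers it read 107, 132 and 132 at ZT 0, 144, 146 and 155 at ZT 4, 179, 148 and 174 at ZT 8, 149, 148 and 139 at ZT 12, 142, 107 and 96.0 at ZT 16, and 136, 120.3 and 111 at ZT 20. ZT 8 was the highest time in both genotypes. The amplitude was 0.16 ± 0.050 in TB livers with a peak at ZT 6.9 (limma adjusted p = 0.127), and 0.23 ± 0.050 in WT livers with a peak at ZT 7.4 (adjusted p = 0.00882). The WT call held with each of the 36 arrays left out in turn, as did the TB and WT calls of Ppard and the TB calls of Thra and Nr2f6. The related Nr2c1 (TR2) had amplitudes of 0.045 in TB and 0.080 in WT livers.

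The remaining receptors were not called rhythmic in TB or WT livers. Nr2f1 and Nr2f2 encode COUP-TFI and COUP-TFII, repressors related to Nr2f6, and had amplitudes of 0.032 and 0.082 in TB livers and 0.057 and 0.19 in WT livers. The NR4A genes Nr4a1, Nr4a2 and Nr4a3, orphan receptors induced rapidly by cAMP and stress signals, had amplitudes of 0.082 to 0.13 in TB livers and 0.054 to 0.13 in WT livers. The estrogen-related receptors Esrra, Esrrb and Esrrg, which act with PGC-1 coactivators on mitochondrial genes, had amplitudes of 0.061 to 0.10 in TB livers and 0.069 to 0.11 in WT livers. Esrra and Esrrg, like Thra and Vdr, had their highest value of the 36 arrays in the muscle-bearing array, which was the highest for 8.02% of all genes. Nr1h3, Nr2c1, Nr6a1 and Hnf4a had their lowest value there, as did 5.70% of all genes. Nr6a1 (GCNF, an orphan receptor of germ cells) and Rorb (ROR beta, known from the nervous system) had amplitudes of 0.076 and 0.049 in TB livers and 0.13 and 0.11 in WT livers.

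Among the markers of cell types, rhythms were called in the endothelial and cholangiocyte lists. Of the 6 liver endothelial cell markers, 0 were rhythmic in TB livers (4.95% of all genes) and 3 in WT livers (6.45% of all genes). These were Clec4g, Stab2 and Cdh5, with peaks at ZT 1.2, 4.3 and 3.4. Lyve1, Pecam1 and Kdr were not called. Without the muscle-bearing array 2 of the 6 were rhythmic in WT livers, beside 1378 of all 22180 genes. The summed endothelial markers ranged from 1536 to 2382 units in TB livers and 1593 to 2259 in WT livers. Of the 5 cholangiocyte markers, Sox9 was called in both genotypes. Hepatocyte, Kupffer cell, stellate cell, neutrophil and lymphocyte lists held 0 rhythmic genes in either genotype. The part of endothelial cells in the rhythms of the receptors was not tested.

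**Figure D3:**
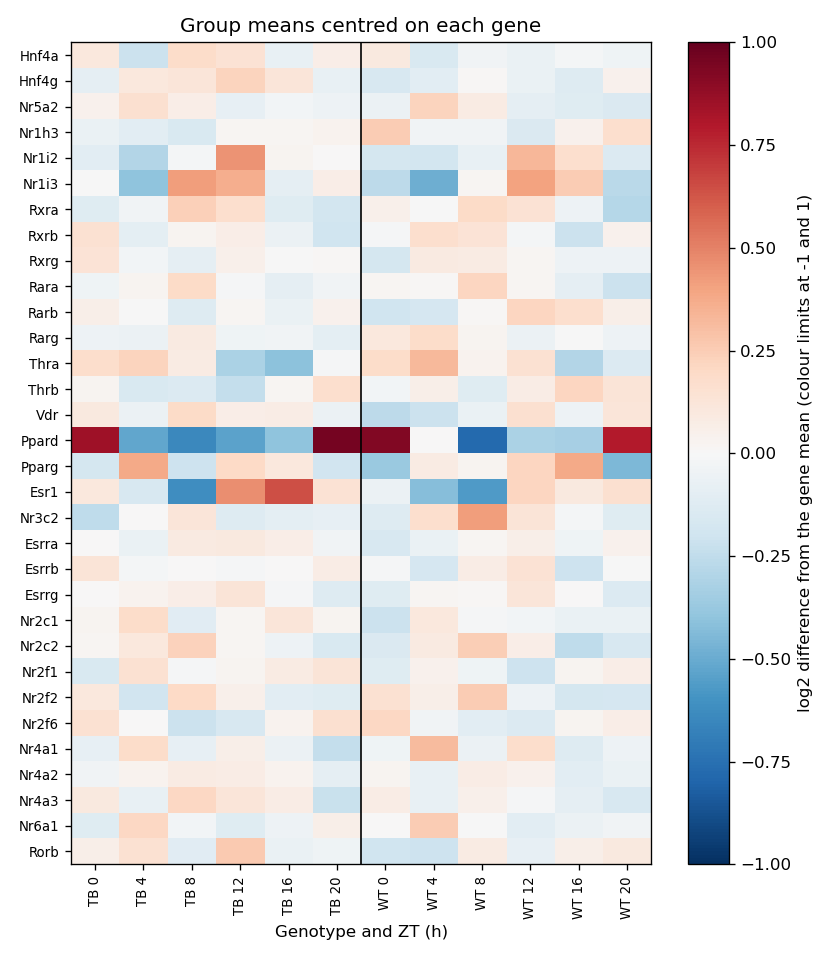
Group means of the 32 receptors, each centred on the mean of its gene, on the log2(intensity + 16) scale, with red above and blue below and colour limits at −1 and 1. Columns are ZT 0 to 20 in TB livers, then in WT livers, and each cell is a mean of 3 arrays. Ppard is red at ZT 0 and ZT 20 and blue at ZT 8 in both genotypes, and most other rows stay pale.

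No receptor was called as different between TB and WT livers when the 6 times were averaged. limma called 0 of 32, where 0.176% of all genes were called (0.117% higher and 0.0586% lower in TB livers). At an unadjusted p under 0.05 there were 2 of 32, both lower in TB livers, beside 11% of all genes (5.35% lower and 5.69% higher). The 95% intervals of all 32 differences, before adjustment, lay within 0.5 log2 of 0, between −0.29 (Ppard) and 0.40 (Esr1) at the extremes. The median difference was 0.028 log2 over the receptors and 0.0073 over all genes. It was positive for 19 of the 32 receptors (59.4%) and for 53.8% of all genes. The receptors with the smallest p were Thrb, Nr3c2 and Hnf4g, followed by Esr1.

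Thrb read 215, 286 and 312 at ZT 0, 250.3, 243 and 215 at ZT 4, 196, 276 and 247 at ZT 8, 204, 211 and 251 at ZT 12, 271, 253 and 275 at ZT 16, and 306, 286 and 298 at ZT 20 in TB livers. In WT livers it read 256, 265 and 251 at ZT 0, 269, 291 and 267 at ZT 4, 248.68, 244.95 and 228 at ZT 8, 299, 262 and 272 at ZT 12, 302, 288 and 334 at ZT 16, and 321, 299 and 251 at ZT 20. Their ranges overlapped, and TB minus WT was −0.11 ± 0.048 log2 (SE, 18 arrays each; limma unadjusted p = 0.0357, adjusted 0.399). Nr3c2 had a lowest, median and highest of 74.2, 118 and 171 in TB livers and 109, 128 and 189 in WT livers, with the arrays given above, and the difference was −0.15 ± 0.067 log2 (unadjusted p = 0.0363, adjusted 0.402). The Nr3c2 difference had opposite signs in the array sets. It was −0.25 in the larger set of 24 arrays (adjusted p = 0.0252) and 0.063 in the smaller set of 12 (adjusted p = 0.869), and the difference between the sets was not tested. In the larger set alone 815 of all 22180 genes were called, and Nr3c2 was the only 1 of the 32 receptors.

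Hnf4g encodes HNF4 gamma, a relative of Hnf4a known from the intestine. TB arrays of Hnf4g read 47.0, 52.4 and 37.7 at ZT 0, 47.8, 49.98 and 66.4 at ZT 4, 56.8, 55.1 and 52.7 at ZT 8, 73.1, 56.2 and 52.5 at ZT 12, 69.7, 54.2 and 43.9 at ZT 16, and 39.8, 57.3 and 42.2 at ZT 20. WT arrays of Hnf4g read 33.0, 45.0 and 50.3 at ZT 0, 57.7, 31.4 and 48.3 at ZT 4, 38.1, 65.9 and 48.1 at ZT 8, 53.2, 40.5 and 46.3 at ZT 12, 46.1, 38.4 and 46.7 at ZT 16, and 46.7, 53.4 and 54.1 at ZT 20. Their ranges overlapped, with a difference of 0.14 ± 0.067 log2 (limma unadjusted p = 0.0538, adjusted 0.460). Esr1 had a difference of 0.20 ± 0.10 log2 (unadjusted p = 0.0598, adjusted 0.478), with 97.1, 268 and 422 in TB livers and 123, 229 and 362 in WT livers as lowest, median and highest. Hnf4a differed by 0.071 log2, with a 95% interval of −0.077 to 0.22. The summed Kupffer cell markers, 6 of 6 measured, ranged from 910 to 2197 units in TB livers and 625 to 2002 in WT livers, and limma called 0 of the 6 as different. All 6 had higher means in TB livers, as did 53.8% of all genes, with a median difference of 0.14 log2 beside 0.0073 over all genes. At an unadjusted p under 0.05, 1 of the 6 was higher, beside 5.69% of all genes. Without the muscle-bearing array 5 of the 6 markers were higher, as were 12180 of all 22180 genes, with a median of 0.11 over the markers. Their part in the differences was not tested.

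**Figure D4:**
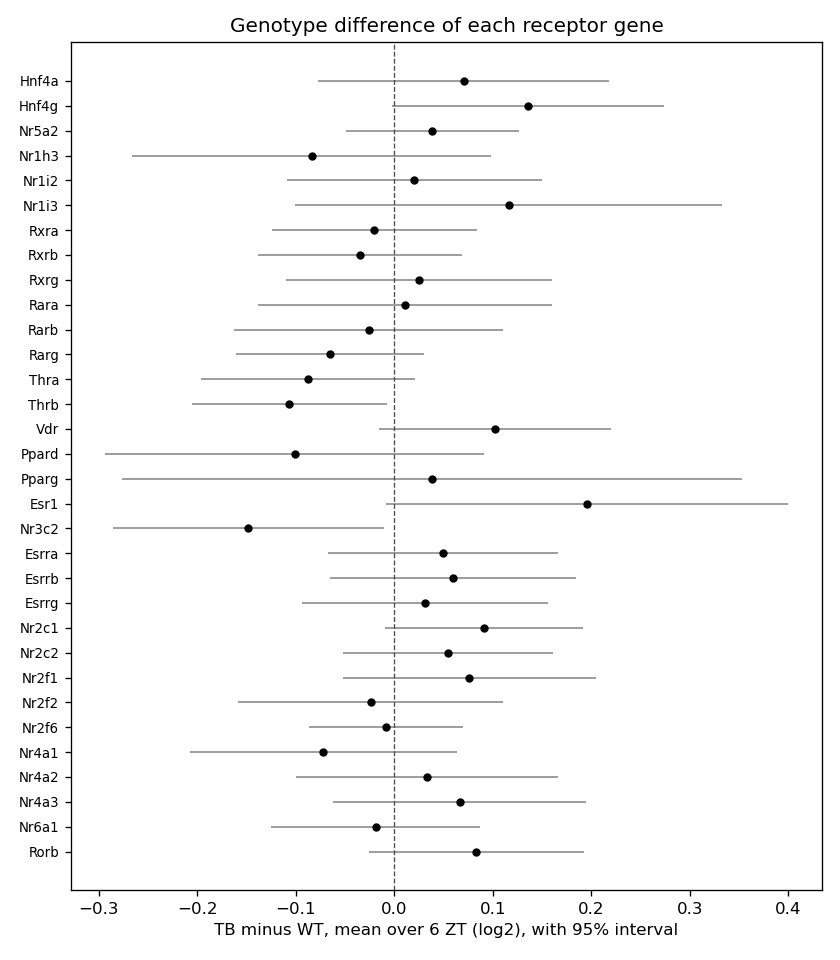
TB minus WT difference of each of the 32 receptors, averaged over the 6 times, on the log2(intensity + 16) scale (horizontal axis), with the 95% interval of the limma fit as a line. The intervals of Thrb and Nr3c2 lie below 0 before adjustment, those of the other 30 include 0, and all lie between −0.29 and 0.40.

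At single times limma called 0 of the 32 receptors at any of the 6 ZT, beside 0.00451% of all genes at ZT 8 and 0% at the other times. At an unadjusted p under 0.05 there were 3 receptors at ZT 12 (7.41% of all genes), 4 at ZT 4 (3.26%), 1 at ZT 0 (4.74%), 1 at ZT 16 (5.38%) and 0 at ZT 8 (5.3%) and ZT 20 (1.81%). The smallest p was that of Thra at ZT 12, where the TB arrays read 52.8, 50.7 and 56.0 units and the WT arrays 64.9, 70.8 and 109. The groups did not overlap, and the difference was −0.47 ± 0.13 log2 (n = 3 each; limma unadjusted p = 0.00119, adjusted 0.453). The highest WT value is that of the muscle-bearing array, and without it the difference was −0.28 (adjusted p = 0.543).

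Rorb followed, with 43.6, 40.8 and 36.8 in TB livers and 18.9, 37.6 and 29.1 in WT livers at ZT 4 (0.36 ± 0.13 log2; limma unadjusted p = 0.00964, adjusted 1.00). At ZT 12 it read 42.8, 42.6 and 48.9 in TB livers and 35.03, 30.1 and 30.6 in WT livers (0.34 ± 0.13 log2; limma unadjusted p = 0.0137, adjusted 0.577). The groups overlapped at ZT 4 and were apart at ZT 12. Thrb at ZT 12 read 204, 211 and 251 in TB livers and 299, 262 and 272 in WT livers, again apart (−0.31 ± 0.12 log2; limma unadjusted p = 0.0150, adjusted 0.577). Ppard at ZT 4 read 72.1, 61.1 and 52.6 in TB livers and 107, 95.7 and 85.0 in WT livers, with a difference of −0.53 ± 0.23 log2 (limma unadjusted p = 0.0299, adjusted 1.00). The groups did not overlap.

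Rxrb and Rarg also had an unadjusted p under 0.05 at ZT 4. Rxrb was lower in each TB array than in each WT array (−0.26 ± 0.12 log2; limma unadjusted p = 0.0433, adjusted 1.00). Rarg read 44.0, 41.3 and 44.7 in TB livers and 54.8, 54.0 and 53.5 in WT livers at ZT 4, again apart (−0.24 ± 0.11 log2; limma unadjusted p = 0.0435, adjusted 1.00). At ZT 0 the smallest p was that of Vdr, with 26.1, 27.2 and 26.3 in TB livers and 20.0, 14.96 and 17.1 in WT livers, apart (0.35 ± 0.14 log2; limma unadjusted p = 0.0176, adjusted 1.00). Nr2c1 and Rorb followed at ZT 0. Nr2c1 read 229.6, 174 and 220.4 in TB livers and 163, 201 and 157 in WT livers, overlapping (0.24 ± 0.12 log2; limma unadjusted p = 0.0539, adjusted 1.00), and Rorb was apart (0.26 ± 0.13 log2; limma unadjusted p = 0.0568, adjusted 1.00).

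At ZT 8 the smallest p was that of Nr3c2, whose arrays overlapped (−0.30 ± 0.17 log2; limma unadjusted p = 0.0801, adjusted 0.971). Vdr (0.25 ± 0.14 log2; limma unadjusted p = 0.0811, adjusted 0.971) and Nr1i3 (0.40 ± 0.26 log2; limma unadjusted p = 0.131, adjusted 0.986) were next at ZT 8. At ZT 16 the smallest p was that of Esr1, which was higher in each TB array than in each WT array (0.55 ± 0.24 log2; limma unadjusted p = 0.0336, adjusted 0.908). Thrb (−0.20 ± 0.12 log2; limma unadjusted p = 0.109, adjusted 0.944) and Nr2c1 followed at ZT 16. Nr2c1 read 232, 222 and 213 in TB livers and 181, 212 and 186 in WT livers, apart (0.19 ± 0.12 log2; limma unadjusted p = 0.119, adjusted 0.944). At ZT 20 Rxrb (−0.24 ± 0.12 log2; limma unadjusted p = 0.0619, adjusted 1.00), Nr1i3 (0.34 ± 0.26 log2; limma unadjusted p = 0.205, adjusted 1.00) and Vdr (−0.18 ± 0.14 log2; limma unadjusted p = 0.216, adjusted 1.00) had the smallest p.

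The test of whether the TB minus WT difference depends on ZT called 0 receptors and 0% of all genes. At an unadjusted p under 0.05 it held 1 receptor (Rorb, unadjusted p = 0.00619, limma adjusted p = 1.00), beside 2.48% of all genes. Thra (unadjusted p = 0.0514) and Rxrb (0.0556) were next, each with limma adjusted p = 1.00. Without the muscle-bearing array the limma unadjusted p of Thra was 0.241. The mean TB minus WT difference of Rxrb was −0.035 log2. TB arrays of Rxrb read 89.8, 90.1 and 103 at ZT 0, 64.2, 81.1 and 86.5 at ZT 4, 83.1, 85.9 and 86.3 at ZT 8, 94.2, 82.9 and 87.0 at ZT 12, 68.5, 81.8 and 88.3 at ZT 16, and 81.6, 60.5 and 70.1 at ZT 20. WT arrays of Rxrb read 81.6, 83.4 and 82.7 at ZT 0, 97.6, 91.3 and 96.9 at ZT 4, 86.2, 88.2 and 106 at ZT 8, 79.6, 91.1 and 75.6 at ZT 12, 58.7, 91.5 and 61.2 at ZT 16, and 100.5, 76.8 and 82.0 at ZT 20. TB arrays were above the WT arrays at ZT 0 and below them at ZT 4, and overlapped with them at the other 4 times. Rorb read 34.4, 38.1 and 37.3 at ZT 0, 43.6, 40.8 and 36.8 at ZT 4, 39.9, 23.8 and 29.9 at ZT 8, 42.8, 42.6 and 48.9 at ZT 12, 30.5, 32.4 and 34.3 at ZT 16, and 28.8, 37.3 and 33.3 at ZT 20 in TB livers. In WT livers it read 34.2, 31.6 and 19.5 at ZT 0, 18.9, 37.6 and 29.1 at ZT 4, 36.7, 38.8 and 37.4 at ZT 8, 35.03, 30.1 and 30.6 at ZT 12, 37.6, 35.9 and 36.2 at ZT 16, and 42.0, 33.0 and 40.1 at ZT 20. TB arrays were above the WT arrays at ZT 0 and ZT 12, below them at ZT 16, and overlapped with them at the other 3 times.

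Genes that work with the receptors were read from lists of partners and known targets, some of which share genes. In 12 such lists limma called 0 genes as different between TB and WT livers and 0 as different in rhythm. Without the muscle-bearing array, a setting chosen for the lists after seeing the data, limma called 44 of all 22180 genes. Among them was 1 gene of ligand handling, Hsd11b1, which regenerates active glucocorticoid. Hsd11b1 had the smallest genotype p of its list over all arrays (−0.19 ± 0.049 log2, limma adjusted p = 0.123, against −0.21 and 0.0491 without that array). Counts of rhythmic genes in the lists stand beside 4.95% of all genes in TB livers and 6.45% in WT livers, and counts lower in TB livers at an unadjusted p under 0.05 beside 5.35%. Rhythm counts given without the muscle-bearing array stand beside 1160 of all 22180 genes in TB livers and 1378 in WT livers. Of 13 other measured nuclear receptors, 4 were rhythmic in TB livers and 3 in WT livers. The REV-ERB genes Nr1d1 and Nr1d2, repressors of the clock, had amplitudes of 2.28 and 1.47 in TB livers and 2.50 and 1.64 in WT livers. Ppara, the PPAR of fatty acid oxidation, had 0.46 in TB livers and 0.54 in WT livers with peaks at ZT 11.1 and 11.4 for TB and WT. Nr0b2, the corepressor SHP, was called in TB livers (amplitude 0.52, adjusted p = 0.0305), with 0.30 in WT livers (adjusted p = 0.389).

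Of 19 coregulators, 2 were rhythmic in each genotype. Ppargc1b, the coactivator PGC-1 beta, was called in both, with amplitudes of 0.49 in TB livers and 0.65 in WT livers and peaks at ZT 8.8 and 9.3 for TB and WT. Nrip1 (RIP140, a corepressor) was called in TB livers and Ncoa2 (a p160 coactivator) in WT livers. Of 21 genes of ligand handling, 3 were rhythmic in TB livers and 2 in WT livers. Stra6l, a transporter of retinol, and Dhrs3, a retinal reductase, were called in both, with amplitudes of 0.48 and 0.34 in TB livers and 0.58 and 0.33 in WT livers, and Cyp2r1, a vitamin D 25-hydroxylase, in TB livers (0.30).

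Of 10 targets of LXR, 2 were rhythmic in TB livers and 3 in WT livers. The sterol exporters Abcg5 and Abcg8 were called in both, with amplitudes of 0.52 and 0.57 in TB livers and 0.66 and 0.76 in WT livers. Cyp7a1, the rate-limiting enzyme of bile acid synthesis, had 0.52 in TB livers (limma adjusted p = 0.0704) and 0.87 in WT livers (adjusted p = 0.000387). Of 7 targets of LRH-1, 4 were rhythmic in TB livers and 3 in WT livers, the 3 in WT livers being Abcg5, Abcg8 and Cyp7a1 again. Of 12 targets of PPAR gamma and delta, 2 were rhythmic in each genotype. Angptl4, an inhibitor of lipoprotein lipase, was called in both with 1.05 in TB livers and 0.98 in WT livers, peaking at ZT 10.2 and 11.3 for TB and WT. Pdk4, a kinase that restrains pyruvate dehydrogenase, was called in TB livers (1.20, peak at ZT 22.2), and Fitm2, a lipid droplet protein, in WT livers (0.40). The muscle-bearing WT array held the highest value of 5 of the 12, such as 1130 units of Pdk4, against at most 546 in the other arrays. Without that array 3 of the 12 were rhythmic in TB livers and 3 in WT livers.

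Of 19 targets of CAR and PXR, 7 were rhythmic in TB livers (4.95% of all genes) and 3 in WT livers (6.45%). Alas1, the first enzyme of heme synthesis, had amplitudes of 0.94 in TB livers and 0.99 in WT livers with peaks at ZT 12.3 and 14.4 for TB and WT. Abcc2, a canalicular exporter of conjugates, was called in both genotypes (0.19 in TB livers and 0.30 in WT livers). The drug-metabolising Cyp2b10 had 0.89 in TB livers (limma adjusted p = 0.0492) and 0.23 in WT livers (adjusted p = 0.893), and its TB minus WT difference was −0.56 ± 0.22 log2 (adjusted p = 0.328). The smallest genotype p of the list was that of Cyp3a13, also a cytochrome P450, at 0.43 ± 0.12 log2 (limma adjusted p = 0.150), with a higher mean in TB livers at each of the 6 times. At an unadjusted p under 0.05, 2 of the 19 were higher in TB livers (5.69% of all genes) and 4 lower (5.35%).

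Of 9 targets of the thyroid hormone receptors, 2 were rhythmic in each genotype, Thrsp and Klf9. Thrsp, a lipogenic factor, had amplitudes of 0.88 in TB livers and 0.77 in WT livers. At an unadjusted p under 0.05, 4 of the 9 were lower in TB livers, Thrsp, Me1, Gpd2 and Idh3a, beside 5.35% of all genes (Me1 −0.43 ± 0.17 log2, limma adjusted p = 0.333). Idh3a, a subunit of isocitrate dehydrogenase that also stands in the list of estrogen-related receptor targets, had −0.87 log2 at ZT 12 and −0.39 to 0.11 at the other times. Its value in the muscle-bearing array was 710.5 units, against at most 350.2 elsewhere. Without that array 3 of the 9 were lower at an unadjusted p under 0.05 (6.06% of all genes), without Idh3a (−0.14 log2, unadjusted p = 0.0616, limma adjusted 0.419). Of 6 targets of retinoic acid receptors, Dhrs3 was called in both genotypes. Of 6 targets of the mineralocorticoid receptor, most of them also targets of the glucocorticoid receptor, 4 were rhythmic in TB livers and 5 in WT livers (3 in WT livers without the muscle-bearing array), with Per1, a clock gene, at 1.23 in TB livers and 1.43 in WT livers.

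Of 19 targets of HNF4 alpha, 0 were rhythmic in TB livers and 2 in WT livers (1 in WT livers without the muscle-bearing array). Cyp8b1, the sterol 12-alpha-hydroxylase that also stands in the LRH-1 list, had the smallest p of all 12 lists for the genotype difference, −0.55 ± 0.13 log2 (limma adjusted p = 0.0855). Of 11 targets of the estrogen-related receptors, 2 were rhythmic in TB livers and 3 in WT livers (3 in TB livers and 2 in WT livers without the muscle-bearing array). The median TB minus WT difference of these 11 was −0.14 log2, beside 0.0073 over all genes, 7 were lower at an unadjusted p under 0.05 (5.35% of all genes), and 0 were called. The muscle-bearing WT array held the highest value of 8 of the 11, such as 740.4 units of the muscle gene Perm1, against at most 33.2 in the other arrays, and the 10 muscle markers had a median TB minus WT difference of −0.39 log2. Without it the median of the 11 was −0.10 and 3 were lower at an unadjusted p under 0.05 (6.06% of all genes). Mfn2, of mitochondrial fusion, differed by −0.15 ± 0.049 log2 (limma adjusted p = 0.225) with the array and by −0.12 (adjusted p = 0.241) without it. Esrra itself differed by 0.049 log2 (95% interval −0.067 to 0.17).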

How the data were processed

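Livers of TB and WT mice at 6 times of day were measured on 36 arrays, 3 per group, grouped by their titles. The TB genotype is given only in part, since 1 other element of it is not reported here. The deposited values are probe set intensities on a linear scale for 41345 probe sets, made by the authors with Affymetrix Expression Console 1.1.1 and PLIER 2.0, per the submitters' processing notes. Neither the settings used nor any scaling between arrays is stated in what was available here. The number of arrays limits the precision.

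Of the probe sets, 23521 carried 1 gene symbol in the platform annotation, 1814 several and 16010 none. Symbols were updated through Entrez identifiers to RefSeq (GRCm38.p6), where 99.2% matched. The probe set with the highest mean stood for a gene, which left 22180 genes with no filter. Values were turned into log2(intensity + 16) and fitted in R 4.3.3 with lmFit and eBayes of limma 3.58.1, checked on simulated data. One fit took 12 group means, for the TB minus WT difference over all times, at each ZT, and its dependence on ZT. Another took a mean, a cosine and a sine of 24 h per genotype, for rhythm in TB, in WT, and different rhythm. Benjamini-Hochberg adjustment ran over the 22180 genes and a call needed an adjusted p under 0.05. The SE of an amplitude is that of the fitted cosine and sine terms.

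The receptors, the lists of partners, targets and cell markers, and the tests were chosen with earlier results of these data known. All measured receptors are named, with values per array for those called and for the 3 or more with the smallest p of each test; in the lists, up to 4 genes by smallest p of the genotype difference and 4 by that of rhythm in WT could be named. The marker genes named (Clec4g, Stab2, Cdh5, Sox9) were chosen after their values were seen. Alternatives were a pseudocount of 1, other normalizations, a filter, blocks, array weights, other time terms, array subsets and each array left out. Of these, the rhythm within each array set and the target and marker lists without the muscle-bearing array were chosen after seeing the data. Promoter windows came from RefSeq. Protein sequences were not used here.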

Additional observations from a re-analysis of the deposited data

How the results depend on the processing

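The counts of receptors differing between TB and WT livers, over all times, at a ZT or by dependence on ZT, and of receptors with a different rhythm, were 0 under every alternative run except 1: in the larger set of 24 arrays alone, 1 receptor (Nr3c2) differed between genotypes. In that set 815 of all 22180 genes differed. In the smaller set of 12 arrays alone the genotype difference of Thrb was 0.0073, that of Nr3c2 was 0.063 and that of Hnf4g was −0.0063, each with the opposite sign to the value over all arrays, and the rhythm calls were 0 in TB and 0 in WT livers, with 6 arrays per genotype. The cause of the difference between the sets was not tested. Receptors rhythmic in WT livers, 7 in the chosen setting, were 4 with each array centred on its median, 11 with array weights and 2 with a 6-level time factor, and the causes were not tested. Counts over all 22180 genes moved too. Rhythmic genes in WT livers numbered 1431 in the chosen setting and 16 to 2138 over the alternatives. In TB livers they numbered 1099 in the chosen setting and 19 to 1994 over the alternatives. Among the receptors called in WT livers, Nr3c2 and Nr1i2 lost the call with a pseudocount of 1, quantile normalization and median centring, Nr5a2 with median centring and with a genotype fitted alone (adjusted p = 0.101 and 0.0520), Thra with a genotype fitted alone (0.0713), and all but Ppard and Thra with the 6-level time factor. Nr3c2 also lost it with the mean of its probe sets (adjusted p = 0.0631) and Nr2f6 in the larger set (0.105). Among those called in TB livers, Rxra lost it with median centring (adjusted p = 0.0999) and the 6-level time factor (0.211), and Esr1 with a genotype fitted alone (0.0642) and in the larger set (0.188). Among receptors called in 1 genotype, calls in the other were gained by Nr1i2 in TB livers with quantile normalization, the filter, the set block and array weights (adjusted p 0.00822 to 0.0372), by Rxra in WT livers with the filter, the set block and array weights (0.0127 to 0.0463), and by Esr1 in WT livers with array weights (0.0175). With each of the 36 arrays left out in turn, receptors rhythmic in TB livers ranged from 4 to 7 and in WT livers from 4 (without WT ZT 4 replicate 1 or WT ZT 8 replicate 1) to 8, and the other counts of receptors stayed at 0 to 0. Rhythmic genes among all 22180 then ranged from 759 to 1501 in TB livers and from 1114 to 1543 in WT livers.

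The genes differing between TB and WT numbered 39, with 15 at a pseudocount of 1, 151 with the array set as a block, 627 with array weights, 815 in the larger set alone, 0 in the smaller set, and 11 to 109 with an array left out. The genes rhythmic in TB livers numbered 482 with the 6-level time factor, 1660 with the set block and 1994 with array weights, and the genes rhythmic in WT livers 596 with the 6-level time factor.

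Replicate numbers are shared between TB and WT, but nothing states that they pair samples: 14 of 18 pairs of the same ZT and number had deviations that correlated above 0.1 (−0.052 to 0.41, median 0.16). With the replicate number as a block, 5 receptors were rhythmic in TB livers and 6 in WT livers (without Nr1i2), and 0 differed between genotypes. With the 18 pairs as a block, 0 differed.

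Probe sets near or under 16 units, as for Esrrb and Vdr, limit what can be seen of those genes. The same limit holds for receptors that read no higher than a muscle gene in livers without muscle RNA, such as Rorb, Rarb and Hnf4g.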
